A study of Mus musculus with 40 samples.

Results

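Liver mRNA of 10 immediate early genes was measured by RNA sequencing in 40 male mice aged 5 months, all labelled C57BL6/J. The genes were Fos, Fosb, Jun, Junb, Egr1, Ier2, Ier3, Klf6, Dusp1 and Myc, chosen by symbol out of 40594 genes present for both genotypes. All 10 passed the filter on low counts, which left 12942 genes for testing. The mice were wild-type (WT) or carried a liver-specific PPARγ deletion (KO), and each genotype had 4 groups of 5 mice: control diet, control diet with pioglitazone (Pio), high-fat diet (HFD) and HFD with Pio (HFD-Pio). Pio is a thiazolidinedione that activates the nuclear receptor PPARγ. The KO mice came from a cross of a floxed line with a line that carries Cre recombinase under the albumin promoter, so liver cells that do not use that promoter can keep PPARγ. The labels do not say whether mice of a group shared a litter or cage, and the p values measure the spread between the mice of these groups.

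Immediate early genes are transcribed within minutes of a growth factor, stress, injury, fasting or hormone signal, from promoters that are ready before the signal comes and without new protein synthesis. Their mRNAs are short-lived, so their levels in a tissue follow its last hours and also how it was taken. Fos, Fosb, Jun and Junb encode subunits of the AP-1 transcription factor, while Egr1, Klf6 and Myc encode other DNA-binding factors. Ier2 and Ier3 encode small response proteins, and Dusp1 encodes a phosphatase that switches off MAP kinases and responds to glucocorticoids. In the liver these genes are known for their burst after partial removal of the organ.

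Libraries held 15788242 to 49857017 counts in WT and 21542958 to 28334251 in KO mice. Pparg read 5.79 to 14.2 CPM (reads of a gene scaled to a common library total, with TMM factors) in WT and 3.01 to 9.88 CPM in KO mice, so the ranges overlapped. This is a total over the gene, which does not isolate the deleted part and therefore does not check the labels. Each genotype was deposited as its own table, which means that a difference in level between genotypes cannot be told apart from one between tables. Levels were tested only within a genotype, and levels set side by side across genotypes below carry this limit. Hepatocyte markers were high everywhere, at a summed 34742 to 149500 CPM over the 7 of 8 listed genes that were found. In mouse 13 (KO Pio) that sum was 34742 CPM, against 74706 to 129380 CPM in the other KO mice, and mitochondrial transcripts made up 0.853% of counts against 5.28% to 7.99% in the other KO Pio mice. Mouse 832 (WT control) had 73106 CPM of hepatocyte markers against 79336 to 149500 CPM in the other WT mice, and 915 CPM of stellate and fibroblast markers against 360 to 688 CPM. In whole liver, a change in the share of a cell type and a change in RNA per cell cannot be told apart.

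Levels per length of exon were compared first, since this scale allows comparison between genes. Junb averaged 50.1 CPM per kilobase over the 40 mice, Egr1 43.3, Dusp1 31.2 and Ier2 29.6. Among these neighbours the order was not stable, as Junb exceeded Egr1 in 21 of 40 mice, Egr1 exceeded Dusp1 in 23 and Dusp1 exceeded Ier2 in 23. Jun followed at 13.6 CPM per kilobase and lay below Ier2 in 38 of 40 mice. Fos at 4.43, Myc at 3.96 and Klf6 at 3.57 CPM per kilobase formed a lower set in which Myc exceeded Klf6 in only 12 mice. Ier3 stood at 1.83 and Fosb at 0.224 CPM per kilobase, and Ier3 exceeded Fosb in 39 of 40 mice. Without mice 832 and 13, Egr1 came first at 41.4 CPM per kilobase and Junb followed at 38.1, and the order of the other 8 genes stayed as given. Counts behind these values ran from 2 to 237 reads for Fosb and from 9 to 221 for Ier3, but from 398 to 32389 for Junb, so single values of Fosb and Ier3 carry the largest counting error. Junb and Jun overlap Prdx2 and Junos on the other strand, while Dusp1 overlaps Ergic1 and Gm8225 on the other and AC122252.1 and AC122252.4 on its own strand. Reads in stretches shared with another gene were left out of the counts if seen as ambiguous, and the strand setting of the counting is not given in the sources used here, so the levels of these 3 genes are less certain.

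**Figure D1:**
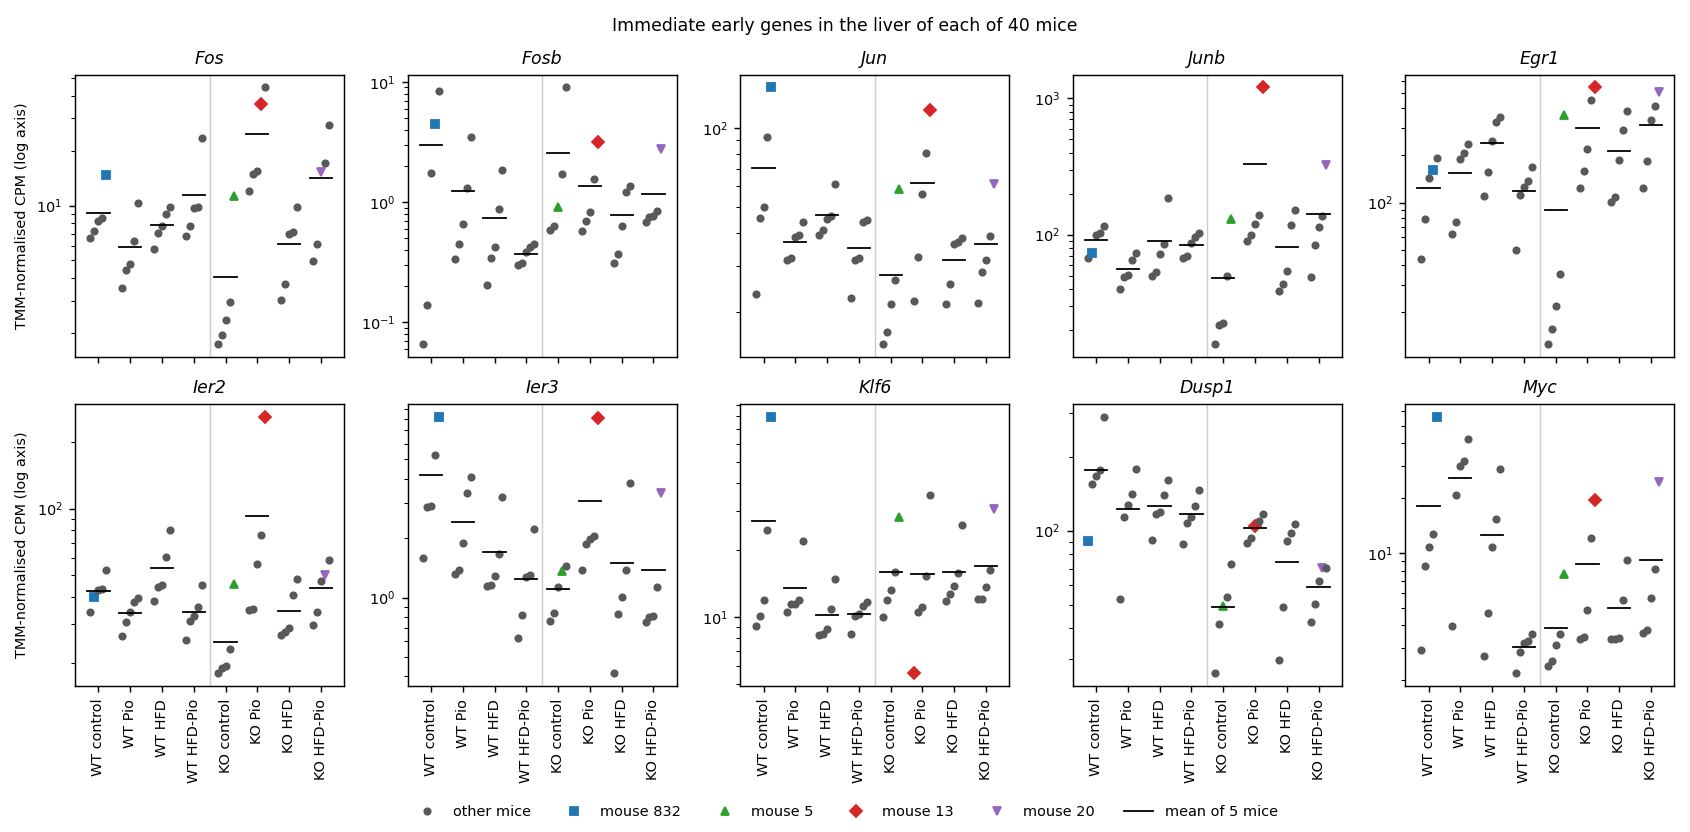
TMM-normalised CPM of the 10 genes on log axes, with a point for each of 40 mice, groups along the horizontal axis, WT left and KO right of the grey line, and bars at the mean of 5 mice. KO control mice sit low for Fos, Junb, Egr1 and Ier2 except mouse 5, and mouse 13 sits at 1203 CPM for Junb while it has the lowest Klf6 at 5.57 CPM.

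The widest spread between animals was in Fosb, with a 137-fold ratio of the highest to the lowest mouse, followed by Junb with 76.3 and Egr1 with 43.4. Jun had the narrowest at 9.42-fold. These ratios rested on single mice, as Junb had 20.7-fold and Ier2 4.45-fold in place of 14.4-fold without mouse 13, and Fosb 65.1-fold without mouse 835, whose value was 2 reads. Without mice 832 and 13 the narrowest was Klf6 at 4.26-fold. KO control mouse 1 was the lowest of all 40 mice for Fos, Jun, Junb, Egr1, Ier2 and Dusp1. The KO control group mean was the lowest of the 8 group means per kilobase for 7 of the 10 genes, and the remaining lowest means belonged to WT HFD (Klf6) and WT HFD-Pio (Fosb and Myc). The highest group means lay in WT control for Jun, Ier3, Klf6, Dusp1 and Fosb, and in KO Pio for Fos, Junb and Ier2. Without mouse 13 the highest mean moved to KO HFD-Pio for Junb (142 CPM) and to WT HFD for Ier2 (53.6 CPM), and without mouse 832 it moved to KO Pio for Jun (61.7 CPM) and to KO HFD-Pio for Klf6 (16.9 CPM).

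The first question was whether Pio changed these genes on the control diet without hepatic PPARγ. Fos, Junb, Ier2 and Dusp1 were higher in KO Pio than in KO control mice, so that 4 of 10 members passed an adjusted p of 0.05, all 4 upward. Over all tested genes 9.02% were called in this comparison and 7.76% were called upward. The median log2 fold change was 1.31 over the 10 members and 0.0289 over all genes. The calls of Junb, Ier2 and Dusp1 were lost without mouse 13, and only Fos was then called. Without mouse 5 the count was 6 and without mouse 14 it was 7.

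Fos, the AP-1 subunit that gives the family its name, read 1.74, 2.97, 2.36, 1.95 and 11.2 CPM in KO control mice 1 to 5. In KO Pio mice 11 to 15 it read 44.4, 12.1, 36.0, 15.5 and 14.8 CPM. Every treated mouse was above every control, and mouse 5 was the only control close to the treated range. Such a separation occurred in 3.71% of all tested genes. The log2 fold change was 2.59 (SE 0.49), a 6.03-fold difference with an adjusted p of 0.00641 by edgeR's quasi-likelihood test. It was 2.42 with an adjusted p of 0.0216 without mouse 13, and 3.44 without mouse 5. With the 20 KO mice fitted alone the adjusted p rose to 0.0892.

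Junb, another AP-1 subunit, read 15.8, 22.6, 21.8, 49.5 and 131 CPM in the controls and 139, 89.8, 1203, 119 and 99.7 CPM with Pio. Control mouse 5 lay inside the treated range, so the groups overlapped, and mouse 13 stood far above the other treated mice. The log2 fold change was 2.78 (SE 0.63, adjusted p = 0.0121) and dropped to 1.23 (adjusted p = 0.315) without mouse 13. Ier2 read 18.0 to 23.3 CPM in control mice 1 to 4 and 45.4 CPM in mouse 5, against 76.2, 34.7, 260, 35.1 and 56.0 CPM with Pio. Its log2 fold change of 1.88 (SE 0.36, adjusted p = 0.0072) became 1.02 (adjusted p = 0.0539) without mouse 13.

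In Dusp1 mouse 13 lay in the middle of its group. Dusp1 read 26.3, 53.5, 73.5, 41.9 and 49.4 CPM in the controls and 117, 88.8, 105, 110 and 93.8 CPM with Pio. No treated mouse fell into the control range, and groups were likewise apart in 3.71% of all tested genes. The log2 fold change was 1.07 (SE 0.30, adjusted p = 0.0264). Without mouse 13 the difference was as large, at 1.08, but the adjusted p was 0.104, and over all genes the number called went from 1167 to 66. The call was also lost without control mouse 1, 2 or 4, at adjusted p values of 0.0816, 0.0506 and 0.0656.

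The other 6 members were not called. Jun read 15.1 to 58.5 CPM in controls and 22.1 to 117 CPM with Pio, with a log2 fold change of 1.15 (SE 0.39, adjusted p = 0.0532). Jun was called without mouse 5, at 1.63, and without Pio mouse 12, 14 or 15 or WT control mouse 832 or 835. Egr1 read 12.5, 21.8, 15.6, 34.98 and 364 CPM in the controls and 453, 159, 543, 123 and 221 CPM with Pio. All treated mice thus exceeded control mice 1 to 4 but not all exceeded mouse 5, and the log2 fold change was 1.74 (SE 0.66, adjusted p = 0.0836). Without mouse 5 the Egr1 difference was 3.82 and its adjusted p 5.75e-04, so this animal decided the call, and it was also called without mouse 14 (1.94). Ier3 differed by 1.47 (adjusted p = 0.0733) on the log2 scale, was called without mouse 11, 12, 14 or 15, and Myc by 1.16 (adjusted p = 0.247). Fosb gave -0.92, with 9.01 CPM in control mouse 2 and 0.569 to 3.16 CPM in the treated mice. Klf6 gave -0.03, with 35.3 CPM in mouse 12 and 5.57 CPM in mouse 13.

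**Figure D2:**
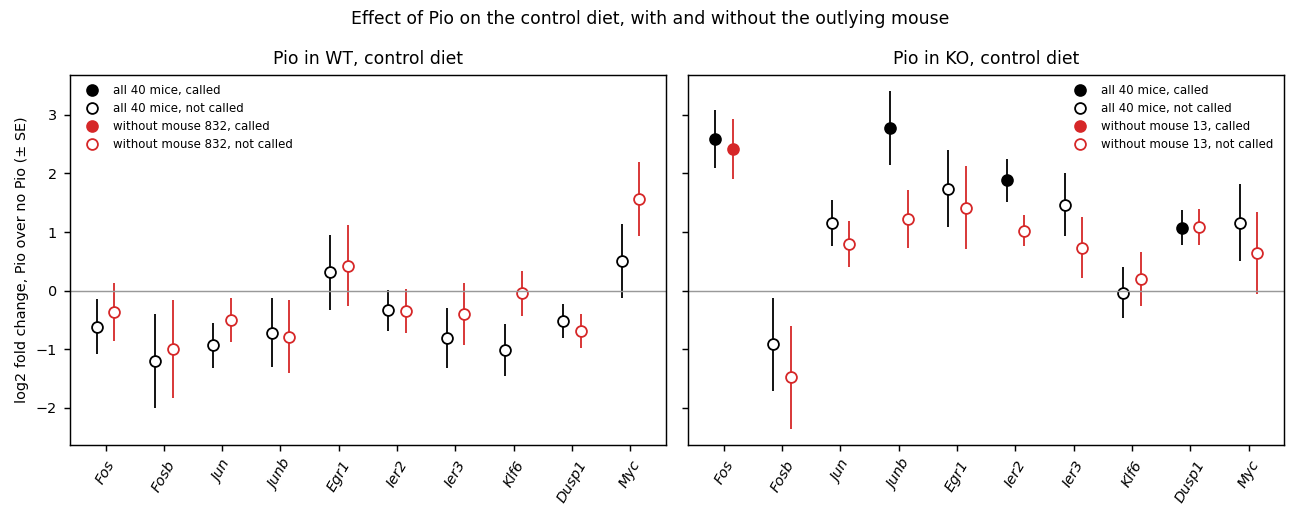
Log2 fold change of each gene with Pio on the control diet (vertical axis, bars are SE) in WT (left) and KO mice (right), for all 40 mice in black and without the outlying mouse in red, filled where called. In KO mice Fos stays at 2.42 without mouse 13 while Junb moves from 2.78 to 1.23, and in WT mice Myc moves from 0.50 to 1.57 without mouse 832.

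The promoters of 7 members had an entry in the RefSeq table for GRCm38.p6, each a window of 250 bases before and 50 after the transcript start. Those of Fos, Junb and Dusp1 are shown because these genes were called with Pio in KO mice, as was Ier2, which had no entry, with matches to the core of the cAMP response element (TGACG on either strand, part of the full element TGACGTCA) and to the TATA box (TATAAA on either strand) in capitals. They are written along the gene's strand.

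Fos promoter, chr12:85473640-85473939, plus strand: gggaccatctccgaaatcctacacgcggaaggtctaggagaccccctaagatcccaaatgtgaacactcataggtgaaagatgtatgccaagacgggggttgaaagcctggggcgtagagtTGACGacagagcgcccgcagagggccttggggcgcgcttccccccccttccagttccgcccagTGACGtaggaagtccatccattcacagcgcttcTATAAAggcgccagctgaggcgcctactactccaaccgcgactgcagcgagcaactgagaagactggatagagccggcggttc

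Junb promoter, chr8:84978699-84978998, minus strand: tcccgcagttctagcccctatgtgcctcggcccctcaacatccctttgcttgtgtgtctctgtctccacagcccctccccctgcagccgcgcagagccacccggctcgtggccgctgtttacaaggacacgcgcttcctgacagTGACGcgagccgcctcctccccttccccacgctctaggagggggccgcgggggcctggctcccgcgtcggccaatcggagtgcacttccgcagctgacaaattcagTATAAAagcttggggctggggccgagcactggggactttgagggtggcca

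Dusp1 promoter, chr17:26508423-26508722, minus strand: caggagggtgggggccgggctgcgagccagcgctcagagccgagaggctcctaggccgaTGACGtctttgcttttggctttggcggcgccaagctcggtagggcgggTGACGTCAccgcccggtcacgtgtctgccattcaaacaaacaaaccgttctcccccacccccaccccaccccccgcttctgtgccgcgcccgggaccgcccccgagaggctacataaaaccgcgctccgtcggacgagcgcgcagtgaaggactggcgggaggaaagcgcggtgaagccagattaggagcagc

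The Fos window held the core element at positions -129 to -125 and -66 to -62, counted from the transcript start, and a TATA box at -33 to -28. Junb held the core element at -106 to -102 and TATAAA at 1 to 6. Dusp1 was the only member with the full element, at -143 to -136, and had another core match at -191 to -187. The core element was present in 4 of 7 member windows, namely those of Fos, Fosb, Junb and Dusp1, against 20.8% of 32851 RefSeq windows, and the full element in 1 of 7 against 1.79%. The windows of Jun, Ier3 and Klf6 held none. The AP-1 site (TGACTCA or TGAGTCA, 5.2% of all windows), the CArG box of serum response factor (1.63%) and a perfect direct repeat of the PPAR response element with a spacer of 1 base (0.0396%) matched in 0 of the 7 windows. These are letter matches in short windows and say nothing of occupancy.

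In WT mice on the control diet, 0 of 10 members were called for Pio by edgeR, where 3.91% of all genes were, and 2 members had an unadjusted p under 0.05 (Jun and Klf6). The share of all genes at that unadjusted p was not counted, here or for such counts below. The median log2 fold change was -0.67 over the members against -0.02 over all genes, and 8 of 10 values were negative. Fosb had the lowest at -1.20 (SE 0.80, adjusted p = 0.464). The highest was Myc, at 0.50 (SE 0.63, adjusted p = 0.745).

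The WT control group held wide ranges. Jun read 50.03, 143, 92.0, 45.7 and 23.4 CPM in WT control mice 831 to 835 and 31.6 to 43.9 CPM with Pio. Klf6, a zinc finger factor, read 79.8 CPM in mouse 832 and 9.08 to 24.7 CPM in the other controls, against 10.5 to 21.9 CPM with Pio. Mouse 832 was the highest control for Fos, Jun, Ier3, Klf6 and Myc and the lowest for Dusp1, at 90.7 CPM against 156 to 291 CPM. Without it the Klf6 difference moved from -1.01 to -0.05 and the Jun difference from -0.93 to -0.51.

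Myc is a regulator of cell growth. It read 8.48, 56.0, 12.7, 10.8 and 2.93 CPM in WT control mice, 3.97 CPM in Pio mouse 841, and 20.9, 30.1, 42.1 and 32.1 CPM in Pio mice 842 to 845. Mouse 845 also had 21.1% mitochondrial counts, the highest of the series. Apart from mouse 832 every control was below the 4 higher Pio mice. Without mouse 832 the log2 difference was 1.57 (adjusted p = 0.181). Limma with sample weights, the method of the study, called it at 1.79 (adjusted p = 0.0064), with 3095 of all 12942 genes called.

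The Pio effect on the control diet was then compared between the genotypes in the same model. With all mice in edgeR it was more positive in KO than in WT mice for all 10 members. By limma with sample weights it was less positive in KO mice for Fosb, Klf6 and Myc. With mice 832 and 13 both left out it was less positive for Fosb and Myc. The difference was called for 5 of 10, where 7.88% of all genes were called and 5.39% upward. The median difference was 1.84 over the members and 0.0609 over all genes. The difference was 3.21 for Fos (SE 0.68, adjusted p = 0.00511), 3.496 for Junb (SE 0.85, adjusted p = 0.0131) and 2.09 for Jun (SE 0.55, adjusted p = 0.0194) on the log2 scale. It was 2.22 for Ier2 (SE 0.50, adjusted p = 0.00817) and 1.59 for Dusp1 (SE 0.42, adjusted p = 0.0191). The other 5 were not called, at 2.27 for Ier3 (adjusted p = 0.0514), 1.43 for Egr1, 0.98 for Klf6, 0.66 for Myc and 0.29 for Fosb. Fos, Ier2 and Dusp1 were still called without mouse 13, at 3.03, 1.35 and 1.58, whereas Junb at 1.94 (adjusted p = 0.089) and Jun at 1.73 (adjusted p = 0.0513) were not. Jun was also lost without mouse 832, at 1.65 (adjusted p = 0.0527), and Egr1 was called without mouse 5, at 3.51. Ier3 passed in 10 of the 40 fits without 1 mouse. This comparison uses the KO and WT control groups that enter the other comparisons on the control diet.

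On the HFD, Pio gave 0 called members in either genotype by edgeR, with 1 member in each at an unadjusted p under 0.05. Over all genes 1.08% were called in WT and 0.0155% in KO mice. In WT mice Myc had the lowest value, at -2.04 (SE 0.67, adjusted p = 0.123). It read 4.67, 10.7, 2.71, 15.4 and 28.9 CPM in WT HFD mice 826 to 830 and 2.18 to 3.59 CPM in all 5 HFD-Pio mice. The treated values were close together, and control mouse 828 lay among them. With mice 832 and 13 both left out Myc was called, at -2.03 (adjusted p = 0.0257), in a fit that called 1819 of all 12836 genes. Limma with sample weights gave -1.78 (adjusted p = 0.0966).

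In KO mice on the HFD, Fos had the highest value with Pio, at 1.21 (SE 0.47, adjusted p = 1.00). It read 3.04, 7.03, 3.72, 7.15 and 9.87 CPM in KO HFD mice 6 to 10 and 27.7, 4.96, 6.15, 17.0 and 15.2 CPM in KO HFD-Pio mice 16 to 20. HFD-Pio mice 16, 19 and 20 lay above all HFD mice and the other 2 among them. Ier3 had a value of -0.11 and Dusp1 had the lowest, at -0.33. Junb read 38.3 to 152 CPM without and 48.5 to 326 CPM with Pio. Mouse 20 was the highest for Junb, at 326 CPM, and for 6 other members.

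The diet difference of the Pio effect gave 0 called members by edgeR in WT mice, where 0.0773% of all genes were called, and 0 in KO mice, where 0% were. At an unadjusted p under 0.05 there was 1 member in WT and 5 in KO mice. The 0.0773% and 0% are shares at the adjusted threshold and cannot be set against these unadjusted counts. In WT mice the value was -2.54 for Myc (SE 0.92, adjusted p = 0.228). With mice 832 and 13 both left out Myc was called at -3.60 (adjusted p = 0.026), and 379 of all 12836 genes were called. By limma with sample weights it was called at -3.57, and 1378 of all 12942 genes were called. In KO mice the lowest value was Junb, at -1.97 (SE 0.84, adjusted p = 0.373), and the highest Fosb, at 1.49. Dusp1 in KO mice gave -1.41 (SE 0.42, adjusted p = 0.339).

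For HFD against control diet, 1 member was called in 4 comparisons. That was Myc in WT mice that received Pio, where 1.22% of all genes were called and 0.966% downward. Myc fell from 3.97, 20.9, 30.1, 42.1 and 32.1 CPM in WT Pio to 2.18, 3.59, 2.86, 3.28 and 3.22 CPM in WT HFD-Pio mice. No mouse on the HFD reached the lowest mouse on control diet, a separation found in 6.49% of genes. The log2 fold change was -3.09 (SE 0.69, adjusted p = 0.0179), and over all alternatives the adjusted p ran from 1.37e-04 to 0.0592. The call was lost without any filter on low counts and without mouse 836, 838, 840 or 845. The other 9 members lay between -1.77 for Fosb and 0.96 for Fos.

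In WT mice without Pio, 0 of 10 members were called by edgeR, 3 had an unadjusted p under 0.05, and 1.31% of all genes were called. Fosb at -2.01 (SE 0.86, adjusted p = 0.278), Klf6 at -1.40 (SE 0.45, adjusted p = 0.113) and Ier3 at -1.29 (SE 0.53, adjusted p = 0.25) were the lowest. Klf6 was called by DESeq2, which called 376 of all 12942 genes, and without mouse 831 or 13. Without mouse 832 the Klf6 value was -0.44. The highest was Egr1 at 0.94, with 110 to 352 CPM on the HFD and 43.5 to 194 CPM on control diet. Ier3, which acts in cell survival, read 1.14 to 3.24 CPM on the HFD and 1.58 to 8.22 CPM on control diet.

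In KO mice without Pio, 0 of 10 members were called by edgeR, 2 had an unadjusted p under 0.05, and 0.185% of all genes were called. Egr1 read 101, 289, 108, 187 and 385 CPM on the HFD, all above KO control mice 1 to 4 (12.5 to 34.98 CPM), while KO control mouse 5 read 364 CPM. The log2 fold change was 1.25 (SE 0.65, adjusted p = 1.00) and became 3.33 (adjusted p = 0.0129) without mouse 5. Limma with sample weights called Egr1 and Dusp1, with 542 of all 12942 genes called. Fosb was lowest at -1.72 (SE 0.83).

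In KO mice with Pio, 0 of 10 members were called for HFD by edgeR, 4 had an unadjusted p under 0.05, and 4.96% of all genes were called. Dusp1 read 70.4, 50.4, 62.7, 42.6 and 70.2 CPM in HFD-Pio and 88.8 to 117 CPM in Pio mice. Its groups did not overlap, as in 2.43% of genes, and its log2 fold change was -0.79 (SE 0.29, adjusted p = 0.0883). Ier2 gave -1.07 (SE 0.35, adjusted p = 0.0626), which became -0.20 without mouse 13 and was called without mouse 11, 12, 14 or 15. Junb gave -1.22 with all mice and 0.34 without mouse 13, and Klf6 gave 0.12 and -0.11. This comparison and that of Pio on the control diet share the KO Pio group.

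The differences between genotypes of the remaining effects gave 0 called members by edgeR. Over all genes 0.0927% were called for the Pio effect on HFD, 0.0618% for the HFD effect without Pio and 0.0155% for the HFD effect with Pio. The members with an unadjusted p under 0.05 numbered 2, 3 and 4. Myc had the highest value for Pio on HFD, at 2.92 (SE 0.93, adjusted p = 0.515), and for HFD with Pio, at 3.17 (SE 0.93, adjusted p = 0.131). The latter was called without mouse 841, and by limma with sample weights at 3.68 (adjusted p = 0.00474), with 975 of all 12942 genes called. For HFD without Pio the values ran from 0.12 for Ier2 to 1.72 for Ier3 (SE 0.76, adjusted p = 0.454).

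Genes around the members were examined through 4 lists. Of 50 tested other immediate early and primary response genes, 13 rose and 0 fell with Pio in KO mice on the control diet, where 9.02% of all genes were called, with a median log2 fold change of 0.789. Without mouse 13 there were 0 higher and 1 lower, with a median of 0.216, in a fit that called 66 of all genes for this comparison. With KO mice fitted alone 0 of 48 were called with a median of 0.854, in a fit that called 0 of all 12457 genes. In WT mice on the control diet 9 of 50 fell with Pio and 0 rose, against 3.91% of all genes called, with a median of -0.519. That count was 1 without mouse 832, with a median of -0.316. The genotype difference of the effect was called in 19 of 50, all upward, against 7.88% of all genes, in 8 upward and 1 downward without mouse 13, and in 11 upward without mouse 832. For HFD 1 rose and 5 fell in WT mice without Pio, where 1.31% of all genes were called, and 1 rose and 0 fell without mouse 832. With HFD in KO mice with Pio 5 fell, where 4.96% of all genes were called, with a median of -0.49, and without mouse 13 the count was 0 and the median 0.063. Limma with sample weights gave 9 higher and 3 lower for Pio in KO mice, with a median of 0.122, and called 1214 of all 12942 genes.

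Dusp4, a nuclear MAP kinase phosphatase related to Dusp1, was called in 4 of the 8 comparisons of group pairs. It averaged 7.11 ± 4.20 CPM (SD, n = 5) in WT control mice and 3.09 ± 1.16 CPM in those with Pio, and fell by 1.21 on the log2 scale (adjusted p = 0.027). In KO mice it rose with Pio, from 3.01 ± 0.76 to 7.82 ± 4.82 CPM, by 1.38 on the log2 scale (adjusted p = 0.0148). All 5 KO Pio mice, at 5.40 to 16.4 CPM, were above all KO control mice, at 2.15 to 3.86 CPM. Groups did not overlap in 3.71% of all tested genes in this comparison. Without mouse 13 the value was 0.93 (adjusted p = 0.154), and without mouse 832 the WT value was -0.77 (adjusted p = 0.163). Dusp4 also fell with HFD in WT mice without Pio, by 1.34, and in KO mice with Pio, by 1.26.

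Atf3, a stress-induced partner of AP-1, read 64.0 CPM in mouse 832 and at most 9.54 CPM in the other WT controls, against 1.05 to 2.50 CPM in WT Pio mice. It fell by 3.08 on the log2 scale with Pio (adjusted p = 0.0132) and by 3.37 with HFD (adjusted p = 0.0153), but the values were -1.15 and -1.44 without mouse 832, neither called. Fosl1, which encodes the AP-1 subunit Fra-1, read 13.8 CPM in mouse 832 and at most 1.63 CPM in the other controls. It fell by 2.30 with Pio and by 2.51 with HFD, and neither was called without mouse 832. Jund, the most constitutive Jun gene, read 623 CPM in mouse 13 and at most 75.0 CPM in the other KO Pio mice. It rose by 1.77 with Pio (adjusted p = 0.0185), and without mouse 13 the value was 0.22 (adjusted p = 0.856). Ier5l, at 14.4 CPM in mouse 13 and at most 1.61 CPM in the others, went from 1.79 (adjusted p = 0.0422) to 0.03 without that mouse.

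Of 31 upstream kinases and transcription factors, 1 rose and 1 fell with Pio in KO mice on the control diet, 1 rose in WT mice on that diet, and 2 (Rps6ka4 and Rps6ka1) fell with HFD in KO mice with Pio. These are 6.45%, 3.23% and 6.45% of the list, against 9.02%, 3.91% and 4.96% of all genes. Without mouse 13 both KO counts were 0, and without mouse 832 the WT count was 0. For Pio in KO mice on the control diet, the fit without mouse 13 called 66 of all genes. Rps6ka4, a kinase that phosphorylates histones and CREB at these promoters, read 62.5 CPM in mouse 13 and 10.1 to 12.0 CPM in the other KO Pio mice. It rose by 1.16 (adjusted p = 0.0243), and without mouse 13 gave 0.25 (adjusted p = 0.681). Crem, a cAMP-responsive factor, fell from 34.3 ± 6.88 to 19.9 ± 5.48 CPM, by 0.78 on the log2 scale (adjusted p = 0.0157), and gave -0.64 (adjusted p = 0.0995) without mouse 13. Rps6ka5 rose in WT mice with Pio, from 1.18 ± 0.21 to 2.14 ± 0.70 CPM (adjusted p = 0.0462), and its adjusted p was 0.0772 without mouse 832. Rps6ka1 fell with HFD in KO mice with Pio, by 0.91 (adjusted p = 0.041), and gave -0.49 without mouse 13.

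Of 12 tested AP-1 partners, a list that shares Atf3, Fosl1 and Jund with the list above, 2 (16.7%) rose with Pio in KO mice on the control diet, where 9.02% of all genes were called. These were Jund and Mafk. Mafk read 61.8 CPM in mouse 13 and at most 25.7 CPM in the other KO Pio mice, and was not called without mouse 13 (0.52, adjusted p = 0.319). Atf3 and Fosl1 were the 2 that fell in WT mice, with Pio on the control diet (16.7% against 3.91% of all genes) and with HFD without Pio (16.7% against 1.31%). Jund fell with HFD in KO mice with Pio (8.33% against 4.96%). Of 12 heat shock genes, which share stress triggers with the members, 2 (16.7%) fell with Pio in KO mice on the control diet and 0 rose. The median log2 fold change was -0.609, and 1 of the 12 values was positive. Without mouse 13, 0 were called, in a fit that called 66 of all genes, and the median was -0.449. Limma with sample weights called 8 of the 12, all lower, and 1214 of all 12942 genes. Hsph1 fell from 99.0 ± 19.7 to 52.2 ± 13.5 CPM, by 0.92 (adjusted p = 0.0148). All 5 treated mice were below all controls, where groups did not overlap in 3.71% of all tested genes. The Hsph1 value was -0.95 (adjusted p = 0.0511) without mouse 13. Hspa8 fell by 0.76 (adjusted p = 0.0487), with 42.5 CPM in mouse 13, and its value was -0.50 (adjusted p = 0.26) without it. Hspb1 fell with HFD in KO mice with Pio, by 1.35, and read 33.0 CPM in mouse 13. It gave -0.49 (adjusted p = 0.879) without that mouse.

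Many calls in these lists also depended on other single mice. Hspa8 lost its call in 30 and Rps6ka5 in 21 of the 40 fits that left out 1 mouse. With Pio in WT mice the call was also lost without mouse 842 or 845 for Dusp4 and without any of mice 842 to 845 for Fosl1. In KO mice on the control diet it was also lost without mouse 1 for Crem, 1 or 4 for Jund, 1 or 3 for Mafk, 4 for Hsph1, any of 1 to 4 for Rps6ka4 and any of 1 to 5 for Ier5l. With HFD in WT mice without Pio it was also lost without mouse 828 for Atf3 and 826, 827 or 828 for Dusp4, and in 15 of 40 fits for Fosl1. With HFD in KO mice with Pio the calls of Dusp4, Jund, Rps6ka4, Rps6ka1 and Hspb1 were lost without mouse 13 or any of 16 to 20.

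The deviation of each mouse from its group mean showed which animals carried these patterns. The highest mouse of each group by the mean of the 10 members was mouse 832 of WT control, 842 of WT Pio, 827 of WT HFD, 838 of WT HFD-Pio, 5 in KO control, 13 in KO Pio, 9 in KO HFD and 20 in KO HFD-Pio. Mouse 13 was the highest of its group for 7 members and the lowest for Klf6. Mice 5 and 20 were also the highest for 7 members each and the lowest for 0. In WT control mouse 835 was the lowest for 8 members.

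**Figure D3:**
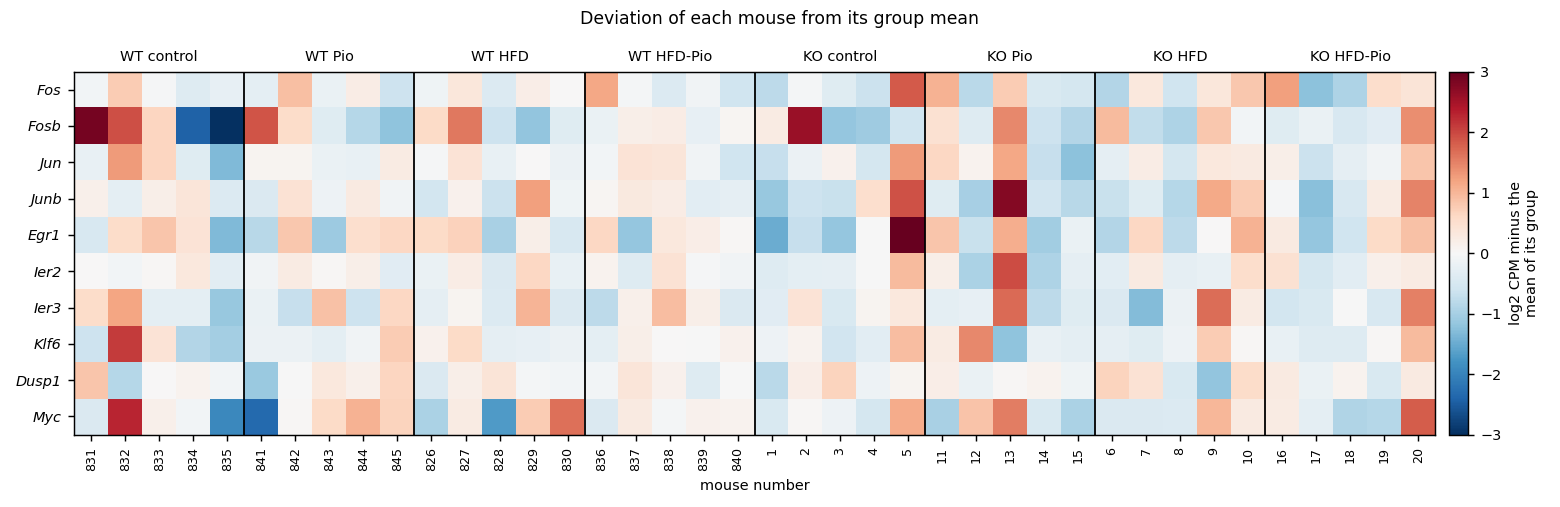
Deviation of log2 CPM from the mean of the mouse's group (colour, saturated at 3 in either direction) for the 10 genes in each of 40 mice, ordered by group. Mouse 832 is high for Klf6 and Myc, mouse 5 for Egr1 and Junb, and mouse 13 for Junb, Ier2 and Ier3 but low for Klf6, while Dusp1 in these last 2 mice is close to its group mean.

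The libraries of these animals also differed from their groups in other respects. The mitochondrial share lay below the other 4 mice of the group in mice 832, 5, 13, 9, 20 and 838. It was within the range in mice 842 and 827. The share was 4.84% against 5.70% to 7.04% in mouse 832 and 6.01% against 6.45% to 7.74% in mouse 5. In mouse 9 it was 5.63% against 6.90% to 7.67%, and in mouse 20 it was 6.65% against 7.06% to 7.83%. In mouse 838 it was 5.74% against 6.07% to 7.31%. Stellate and fibroblast markers were above the others in mice 832, 5 (615 against 450 to 510 CPM), 13 (691 against 414 to 570 CPM) and 9 (639 against 496 to 536 CPM). Bile duct markers were above the others in the same 4 mice, at 110, 65.9, 79.7 and 116 CPM, where the highest of their companions had 51.6, 50.5, 49.5 and 53.0 CPM. Hepatocyte markers were below the others in mice 832, 13 and 9 (74706 against 100040 to 107190 CPM), and within the range in mice 5 (106020 CPM), 20 and 838. They were above the others in mice 842 (135090 against 79336 to 103160 CPM) and 827 (149500 against 102110 to 142110 CPM). Bile duct markers were below the others in mice 842 (42.9 against 44.1 to 61.1 CPM) and 838 (37.4 against 39.1 to 56.3 CPM), and within the range in mouse 827. Stellate and fibroblast markers were below the others in mouse 838 (402 against 407 to 537 CPM) and within the range in mice 842 and 827.

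Other sums set single mice apart. In mouse 13 heat shock genes read 659 against 1289 to 1662 CPM in the other KO Pio mice. Its adipocyte markers read 86.0 against 18.8 to 30.8 CPM, and its pancreatic acinar markers 80.1 against 6.31 to 11.5 CPM. High acinar markers were not particular to mouse 13, as a KO HFD mouse reached 628 CPM. Mouse 9 had 309 CPM of lymphocyte and neutrophil markers against 5.95 to 22.7 CPM, and 1052 CPM of macrophage markers against 474 to 586 CPM in the other KO HFD mice. In mouse 20 macrophage markers read 557 against 425 to 546 CPM and lymphocyte and neutrophil markers 22.2 against 9.62 to 13.9 CPM, while endothelial, stellate and bile duct sums lay within its group. Cd3d and Ly6g, on the lymphocyte and neutrophil list, and Adipoq and Lep, on the adipocyte list, stayed below 1 CPM in all 40 mice. The part of these differences in the levels of the members was not tested.

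Members varied together within groups to different degrees. Over the 45 pairs, Pearson's r of the deviations in 40 mice had a median of 0.342 and ran from -0.266 to 0.817, with 17 pairs above 0.5 and 4 below 0. Junb with Ier2 had the highest r, at 0.817 (Spearman's rho 0.743), and 0.662 without the 2 mice farthest from the median of Junb. Fos with Egr1 followed at 0.743 (rho 0.675, and 0.684 without 2 mice), then Egr1 with Ier2 at 0.691 (rho 0.763). Fos, Jun, Junb, Egr1 and Ier2 correlated with each other at 0.554 or more in all 10 of their pairs. These 5 genes were picked from the same correlations, so their high values follow in part from that choice. Within genotypes these pairs ran from 0.146 (Jun with Ier2) to 0.764 in WT mice, with 2 of 10 above 0.5, and from 0.687 to 0.867 in KO mice. In KO mice without mice 5 and 13 they ran from 0.468 to 0.892. Dusp1 had r between -0.266 and 0.128 with all 9 others, and Fosb had at most 0.455, with Jun. Klf6 correlated with Jun at 0.536 and with Myc at 0.506, but with Junb at 0.0212. The points share libraries and normalisation, and no p is given. Pairs of other genes were not examined, so it is not known whether these values are higher than usual in these data.

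Without mice 832 and 13 the median r was 0.333. Junb with Klf6 moved from 0.0212 to 0.46 and Ier2 with Klf6 from -0.198 to 0.12. Within genotypes the median was 0.285 in the 20 WT mice, with 10 pairs below 0, and 0.343 in the 20 KO mice, with 4 pairs below 0. Without mice 832 and 13, Dusp1 had r between -0.0863 and 0.219 with the others.

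**Figure D4:**
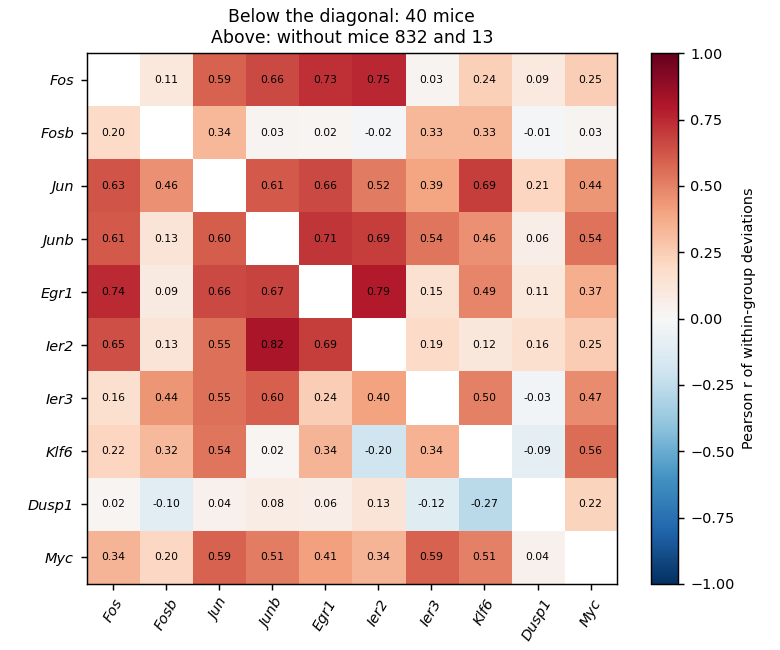
Pearson's r between the within-group deviations of each pair of genes, over 40 mice below the diagonal and over 38 mice above it. Fos, Jun, Junb, Egr1 and Ier2 form a block of positive values, with 0.82 for Junb and Ier2, while the Dusp1 row stays near 0.

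Among 9270 other genes that averaged 5 CPM or more, those whose deviations were most like the mean deviation of the 10 members over 40 mice were Nfkb2 (r = 0.769), Ifngr2, Elmsan1 and Synpo (0.767 each), Plk3 (0.764), Tmem86a (0.76), Rhob and Jund (0.754 each), Selplg (0.753) and Ppp1r18 (0.744). Nfkb2 encodes an NF-κB subunit, Ifngr2 a chain of the interferon-γ receptor, Plk3 a stress-responsive kinase and Rhob a small GTPase that is itself induced early. Without mice 832 and 13, 5 of the 10 were still among the highest 10, where Btg2 (0.828) and Jund (0.811) came first. Btg2, an antiproliferative early gene, ranked 167 over all 40 mice, with r = 0.612. Rank correlation shared 6 of the 10.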

How the data were processed

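Liver RNA of 40 mice was sequenced after poly-A selection. The authors aligned reads to GRCm38 with STAR 2.0.4b and used featureCounts 1.4.5 of the Subread package to count reads that aligned once and to a single gene. The deposited values are raw read counts, whole numbers with 1 column per mouse, in 1 table per genotype. Repeated lines (598 in KO, 574 in WT) held equal values, and 1 was kept. The tables were joined by gene identifier, 355 rRNA genes were left out, and 12942 genes that reached 1 CPM in 5 or more mice entered the tests. The deposited GC percentage of each gene was not used.

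Counts were analysed with edgeR 4.0.16 in R 4.3.3, with TMM factors, 1 mean per group over all 40 mice and the robust quasi-likelihood F test. P values were adjusted within each of 14 comparisons over all tested genes by the Benjamini-Hochberg method, and 0.05 was the threshold. Values per mouse are TMM-normalised CPM, and deviations used log2 CPM with a prior count of 2. The test was also run on simulated data. The outcome of that run is not reported here, so no conclusion about the calls in these mice is drawn from it. Alternatives were DESeq2 1.42.0, limma 3.58.1 with sample weights (the method of the study), DESeq2 size factors, no filter, 1 genotype alone and omission of mice. Gene positions and exon lengths came from GENCODE M21 for GRCm38. Python 3.11.15, pandas 2.3.3, NumPy 2.4.6 and matplotlib 3.10.9 were also used.

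The members and lists were chosen with earlier results of these data known. Beyond the 10 members, up to 5 genes of each of 4 pathway lists were named, those called in most of 8 comparisons of group pairs, and the 10 genes most like the members. Mice named were 832, 13 and the highest of each group by the mean of the members. Any other mouse, and Pparg, was named after its values were seen. Counts limit precision by sampling error, which is part of the spread between mice.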

Additional observations from a re-analysis of the deposited data

Results flagged for a closer look

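Each of the 80 sets of 5 mice, 10 genes in 8 groups, was examined for a mouse whose gap to its nearest neighbour took up more than 0.71 of the range of its group. Chance gives this in about 1 in 20 groups if values are normally distributed. On the CPM scale, which is skewed to high values, 22 values passed and all were high, so that rate need not hold. On log2 CPM 7 passed, all high. The gaps listed below are on the CPM scale, and most of them did not pass on log2 CPM. Those that did not pass include every gap of mouse 832 and that of Egr1 in mouse 5.

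In KO control mice, mouse 5 stood above the others for Egr1 (gap 0.936 of the range), Fos (0.871), Ier2 (0.808), Myc (0.776) and Jun (0.74), and mouse 2 for Fosb (0.868). In KO Pio mice, mouse 13 stood above for Junb (0.955), Ier3 (0.9) and Ier2 (0.816). In KO HFD-Pio mice, mouse 20 stood above for Fosb (0.922), Ier3 (0.857), Myc (0.783) and Klf6 (0.771). In KO HFD mice, mouse 9 stood above for Klf6 (0.723) and Ier3 (0.716).

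In WT control mice, mouse 832 stood above for Myc (0.816), Klf6 (0.779) and Fos (0.768). WT Pio mouse 845 stood above for Klf6 (0.877), WT HFD-Pio mouse 836 for Fos (0.817), and WT HFD mouse 829 for Ier3 (0.752) and Junb (0.735). The same mice recur across genes, and the members share these libraries, so these are not 22 separate events.

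The Pio effect on the control diet differed between KO and WT mice, by a test of the difference itself in edgeR, for Junb (3.496 on the log2 scale), Fos (3.21), Ier2 (2.22), Jun (2.09) and Dusp1 (1.59). Without mouse 13 the values were 1.94, 3.03, 1.35, 1.73 and 1.58, and Junb and Jun were no longer called.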

How the results depend on the processing

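For Pio in KO mice on the control diet the 4 calls became 1 (Fos) with mice 832 and 13 both left out, 0 with KO mice fitted alone, and 1 to 7 when 1 mouse was left out, while other tools and scalings gave 4 to 6. For the genotype difference of that effect the 5 calls became 3 with both mice left out and 3 to 6 without 1 mouse. Myc in WT mice with Pio (HFD effect) gave 0 calls without a filter and 0 to 1 without 1 mouse. Where edgeR called 0 members, limma with sample weights called 1 for the Pio effect of WT mice on control diet, with 3095 of all 12942 genes called. It called 2 for HFD in KO mice without Pio (542 of all genes) and 1 for HFD in KO mice with Pio (309). For the diet difference of the Pio effect it called 1 in WT mice (1378 of all genes) and 1 in KO mice (52). For the genotype difference of the HFD effect with Pio it called 1 (975 of all genes). DESeq2 called 1 for HFD in WT mice without Pio (376 of all genes) and 1 for HFD in KO mice with Pio (1012). Leaving both mice out called 1 for Pio in WT mice on HFD (1819 of all 12836 genes) and 1 for the diet difference in WT mice (379). Leaving out 1 mouse gave 0 to 1 calls for HFD in WT mice without Pio, for HFD in KO mice without and with Pio, and for the genotype difference of the HFD effect with Pio.

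Over 10 members in 14 comparisons, 40 of 140 log2 fold changes changed sign under at least 1 setting, and 0 of these 40 were called with all mice. Those of values discussed above, with the called genes Ier5l, Fosl1 and Jund of the other lists, follow. By limma they were Klf6 (0.028) and Fosb (1.62) for the Pio effect of WT mice on control diet, Ier3 with Pio in KO mice on HFD (0.35), Fosb (1.42), Myc (0.37) and Fosl1 (0.10) with HFD in WT mice without Pio, Ier5l with Pio in KO mice on control diet (-0.024), and, for the genotype difference of Pio on control diet, Fosb (-2.74), Klf6 (-0.14) and Myc (-1.39). With mice 832 and 13 both left out they were Klf6 with Pio in KO mice on control diet (0.18), Myc with HFD in WT mice without Pio (0.52), Junb (0.34), Klf6 (-0.10) and Jund (0.0020) with HFD in KO mice with Pio, and Fosb (-0.53) and Myc (-0.95) in the genotype difference. Leaving out 1 mouse gave -1.48 to 0.50 for Fosb and -0.57 to 0.28 for Klf6 with Pio in KO mice on control diet, -1.15 to 0.52 for Myc with HFD in WT mice without Pio, -1.78 to 0.34 for Junb and -0.21 to 0.67 for Klf6 with HFD in KO mice with Pio, -0.60 to 1.70 for Fosb and -0.42 to 1.07 for Myc in the genotype difference of Pio on control diet, -0.77 to 0.60 for Ier3 with Pio in KO mice on HFD, and -0.0051 to 0.45 for Ier2 in that of HFD without Pio. The cause was not tested.

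No paired analysis was possible because mouse numbers are not shared between groups. The median log2 fold change of all genes moved by at most 0.0773 under any setting. The median Pearson's r of member pairs was 0.342 with all mice, 0.333 without mice 832 and 13 and 0.343 with a prior count of 0.5, and the median rho was 0.356. Subsets of mice and both measures gave medians from 0.256 (rho, WT mice without mouse 832) to 0.381 (rho, KO mice without mice 5 and 13). Levels without mice 832 and 13, and gaps on the log2 scale, were added after seeing the data. Fosb and Ier3, with as few as 2 and 9 reads, are limited by depth.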
